A study of Homo sapiens with 3 samples.

Results

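The broad p68 domains are the sites of the p68 list that spanned at least 3000 bp. They numbered 726 of 14131 p68 sites (5.14%), and the other 13405 sites are called narrower p68 sites. The list came from chromatin immunoprecipitation with sequencing (ChIP-seq) of p68 in NTERA2 cells, an established human embryonal carcinoma line that is used as a model of pluripotent stem cells. It was set beside 7899 sites of the RNA SRA in the same cells, mapped by ChIRP-seq, in which tiled probes to an RNA pull down the chromatin it is bound to. No treatment or other genotype was compared, and an input library was not analysed here. Each assay gave 1 list of positions on the hg19 genome build, made by the authors from 3 biological replicates, with no score, height or read count. The depth and the spread between replicates are therefore unknown, and all intervals and p-values below cover counting error over sites only. Neighbouring sites are not independent of each other, which makes those intervals and p-values too narrow and too small.

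p68, also named DDX5, is a DEAD-box RNA helicase, an enzyme that remodels RNA and RNA-protein complexes with energy from ATP. It is not known as a sequence-specific DNA-binding protein and reaches chromatin through nascent transcripts and through partners such as transcription factors, nuclear receptors and CTCF. SRA, the steroid receptor RNA activator, is a long noncoding RNA that p68 binds and that acts with it as a co-activator. The question put here is where the widest stretches of p68 signal lay, whether they lay near each other, and how they lay relative to SRA.

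The members were chosen by their width, so the widths are given as a description. The broad domains ran from 3002 to 12526 bp, with a median of 3814 bp and quartiles of 3346 and 4781 bp. They made up 5.14% of the sites but 15.1% of the bases in the list, 3.11 of 20.5 Mb. The narrower sites had a median of 1153 bp. The number of sites fell steadily with width, with 1220 sites of at least 2500 bp, 314 of at least 4000 bp, 153 of at least 5000 bp, 66 of at least 6000 bp and 9 of at least 10000 bp. No break in the widths marked the limit of 3000 bp. The 3 members just inside it were chr1:36648951-36651955 (3005 bp), chr2:47619196-47622199 (3004 bp) and chr11:46648456-46651457 (3002 bp). Just outside it lay chr1:17228298-17231296, chr1:165713909-165716907 and chr19:18933896-18936894, each of 2999 bp.

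The 10 widest domains lay on chromosome 12 (8 domains) and chromosome 1 (2 domains), and none of them overlapped an SRA site. Such an overlap was rare in both classes, at 2.48% of all broad domains and 5.23% of narrower sites. Its absence among 10 domains therefore does not set them apart. The widest, chr12:32445823-32458348, spanned 12526 bp, with the next p68 site 525 bp away and the nearest SRA site 515963 bp away. On chromosome 1 the widest were chr1:31553446-31565338 (11893 bp) and chr1:33036030-33046252 (10223 bp), at 14816 and 103290 bp from SRA. Wide domains also stood side by side. The domain chr12:7820866-7832034 (11169 bp) was separated by 582 bp from chr12:7832617-7842382 (9766 bp), and chr12:7914494-7924792 (10299 bp) had another broad domain 36 bp away. Of the 10 widest, chr12:31523734-31535269 (11536 bp) was the nearest to SRA, with an SRA site 3112 bp from its edge. The other three were chr12:31555925-31566468, chr12:32145702-32155849 and chr12:8058543-8068545, of 10544, 10148 and 10003 bp. All 10 had another p68 site within 2255 bp of their edges, and their SRA distances ran from 3112 to 515963 bp.

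The domains were spread very unevenly over the genome. Chromosome 1 held 38.2% of the 726 domains, chromosome 12 held 33.2% and chromosome 2 held 13.2%. On chromosome 12, 241 of 1375 p68 sites were broad (17.5%, 95% Wilson interval 15.6 to 19.6), against 277 of 2722 on chromosome 1 (10.2%, 9.10 to 11.4) and 96 of 1320 on chromosome 2 (7.27%). The share of broad domains differed from that on the rest of the genome for 22 of the 24 chromosomes (91.7% of those tested, Fisher's exact test, two-sided, Benjamini-Hochberg adjusted p under 0.05). It was higher on these 3 and lower on 19. For each of the 19, the rest of the genome includes these 3 chromosomes. Their lower shares therefore follow in part from the high shares of the 3. Among the 19, chromosomes 7 (3.61%) and 21 (2.70%) had the highest shares. Counting sites of a class that lay within 100 kb of each other once left 11 such chromosomes, 3 higher and 8 lower. The odds ratio was 5.38 for chromosome 12 (adjusted p = 2.49e-71 by Fisher's exact test), 2.77 for chromosome 1 (adjusted p = 4.37e-33) and 1.52 for chromosome 2 (adjusted p = 7.31e-04).

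Low shares were seen on chromosomes rich in p68 sites too. Chromosome 3 had 3 broad domains among 830 p68 sites (0.361%), and chromosome 19 had 1 among 732 (0.137%), with adjusted p = 5.74e-15 and 3.65e-15 by Fisher's exact test. Chromosome 16 had 8 among 806 (0.993%). Chromosome 7 came closest to the genome-wide share of the chromosomes below it, with 50 broad domains among 1384 sites (3.61%, adjusted p = 0.00728 by Fisher's exact test). No broad domain was found among 240 p68 sites of chromosome 17, 163 of chromosome 14, 110 of chromosome 18 and 87 of chromosome X, counts of 0 that allow shares of up to 1.25%, 1.84%, 2.73% and 3.45%. Only chromosome 22 (2 of 139 sites, adjusted p = 0.0523 by Fisher's exact test) and chromosome Y, with 2 p68 sites, did not pass the threshold. The 10 chromosomes that held fewer than 100 SRA sites each had 14 broad domains among 1683 p68 sites (0.832%, 0.496 to 1.39). Chromosomes with many SRA sites had both low and high shares. Chromosome 16 (0.993%) held 1046 SRA sites, and chromosome 1 (10.2%) held 2388.

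**Figure D1:**
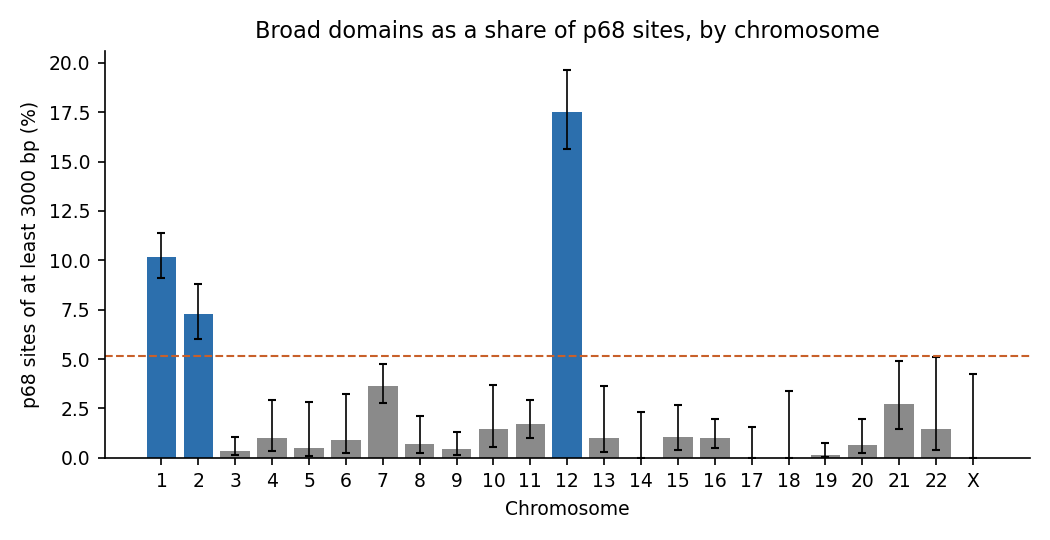
Broad domains as a percent of the p68 sites of each chromosome, with 95% Wilson intervals as bars and the genome-wide 5.14% as a dashed line; chromosome Y, with 2 p68 sites, is left out. Chromosomes 12, 1 and 2 (blue) stand above the line, and all others lie below it.

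Within those chromosomes the domains were again confined to parts of their length. In windows of 10 Mb, 230 of the 310 windows with a p68 site held no broad domain. The 10 windows that held at least 10 of them carried 554 broad domains (76.3%) and 2638 of all p68 sites (18.7%). The window at 30 to 40 Mb of chromosome 12 stood highest among the 5 with most domains, with 67 of its 129 p68 sites broad (51.9%). The others were 0 to 10 Mb of chromosome 12 (98 of 315), 20 to 30 Mb of chromosome 2 (76 of 270), 30 to 40 Mb of chromosome 1 (82 of 411) and 20 to 30 Mb of chromosome 1 (82 of 450). At 1 Mb, 173 of 2092 windows with p68 sites held any broad domain, and 24 of them held 409. The window at 32 to 33 Mb of chromosome 12 had 39 broad domains among 63 p68 sites and no SRA site.

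Most domains therefore fell in 5 stretches of 77 Mb in all, whose limits were set after the counts per Mb had been seen. Shares inside them are a description with no test, and the tests below were also run without them, as alternatives chosen after seeing the data. These were 0 to 35 Mb of chromosome 12, 24 to 48 Mb of chromosome 1 and the 7 Mb of it that start at 150 Mb, 24 to 30 Mb of chromosome 2, and 2 to 7 Mb of chromosome 7. They held 552 of the 726 broad domains (76.0%) and 2511 of the p68 sites (17.8%). Within them 21.98% of p68 sites were broad (20.4 to 23.6), and elsewhere 174 of 11620 were (1.497%, 1.29 to 1.73).

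The stretch of chromosome 12 held 236 broad domains among 650 p68 sites (36.3%, 32.7 to 40.1), of which 73 reached 5000 bp, and the rest of that chromosome held 5 among 725 (0.690%). On chromosome 1 the first stretch held 186 among 1069 (17.4%, 15.2 to 19.8), while 112 p68 sites before 24 Mb included none, a count that allows up to 2.68%. The second stretch of chromosome 1 held 35 among 281 (12.5%), and chromosome 1 outside both held 56 among 1372 (4.08%). The edges on chromosome 1 were not sharp, since the 5 Mb after the first stretch held 4 among 40 (10.0%, 3.96 to 23.1), and the 5 Mb before and after the second held 2 among 24 (8.33%) and 4 among 46 (8.70%, 3.43 to 20.3), intervals that reach the shares of the stretches. The stretch of chromosome 2 was the densest in broad domains, at 12.5 per Mb, with 75 among 236 p68 sites (31.8%, 26.2 to 38.0). Its flanks of 5 Mb held 1 broad domain among 36 p68 sites before it and 1 among 20 after it. On chromosome 7 the stretch held 20 among 275 (7.27%), and the 55 p68 sites before it included none, which allows up to 5.45%. The rest of chromosome 7 held 30 among 1109 (2.71%). Some windows outside the stretches had a higher share than this stretch, such as 40 to 50 Mb of chromosome 7 (8 of 90, 8.89%).

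Domains in the stretches also tended to be wider. Their median width was 4132 bp on chromosome 12, 3772 bp in the first stretch of chromosome 1, 4019 bp on chromosome 2, 3679 bp in the second stretch of chromosome 1 and 3846 bp on chromosome 7, against 3477 bp elsewhere. The share that lay in a stretch rose with width, from 69.7% of the sites of 3000 to 4000 bp to 92.4% of those of at least 6000 bp. Among the 153 domains of at least 5000 bp, 19 lay elsewhere.

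**Figure D2:**
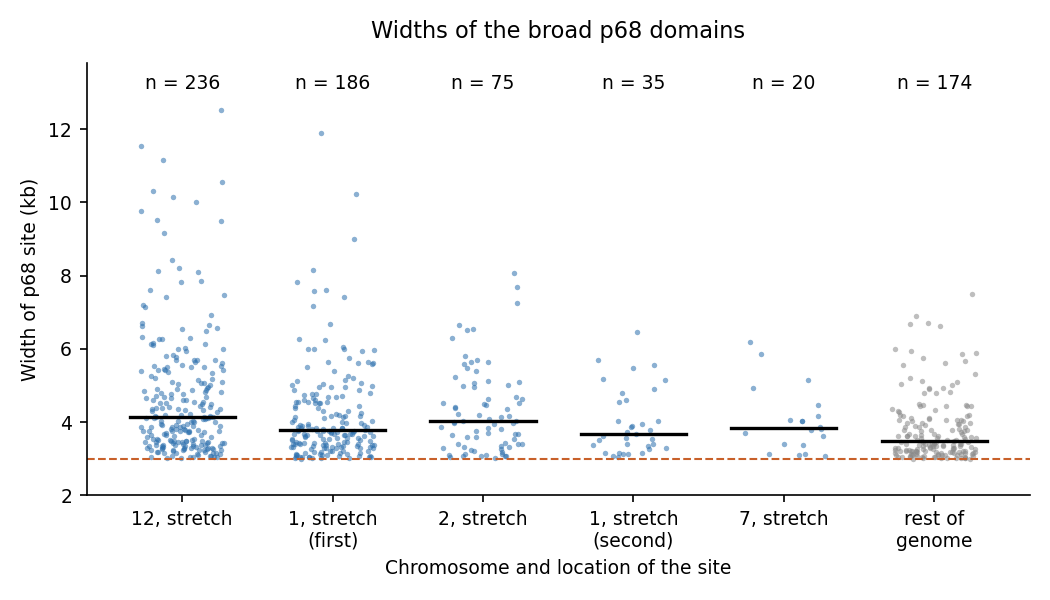
Width in kb of each of the 726 broad domains (points), by stretch and for the rest of the genome, with the median of each set as a black bar and the 3000 bp limit as a dashed line. All sites over 8 kb lie in the stretches of chromosomes 12, 1 and 2, and the rest of the genome reaches 7503 bp.

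The narrower p68 sites of these stretches were wide as well. Narrower p68 sites had a median width of 1821 bp in the stretch of chromosome 12, 1710 bp in that of chromosome 2, 1569 and 1591 bp in those of chromosome 1 and 1322 bp in that of chromosome 7, against 1105 bp elsewhere (quartiles 916 and 1441 bp). On the rest of chromosome 12 the median was 1114 bp. The SRA sites were called from separate libraries and did not enter the rule. Their widths had a median of 4478 bp in the stretch of chromosome 12 (62 sites), 2816 and 2634 bp in those of chromosome 1 (511 and 209 sites) and 2037 bp in that of chromosome 7 (93 sites). Their median outside the stretches was 2178 bp. Wide SRA sites were not particular to the stretches of chromosome 1, since the median over all of that chromosome was 2947 bp, above that of both stretches. Over the whole of chromosome 12 it was 2172 bp. All 5 stretches thus had wider p68 sites also below the 3000 bp limit, and the part of this local difference in the count of broad domains was not tested. DNA copy number and read depth of these intervals in NTERA2 cells were not analysed here, and their part was not tested.

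Over the 174 windows of 10 Mb with at least 20 p68 sites, the percent of broad domains had a Spearman rho of 0.63 with the median width of the narrower sites and of 0.50 with the number of p68 sites. Over 90 windows that also had at least 20 SRA sites, rho with the median SRA width was 0.48. These points share 1 p68 list, neighbouring windows are not independent, and the values are given as a description. The 9 windows whose narrower sites had a median over 1500 bp held 534 of the broad domains.

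**Figure D3:**
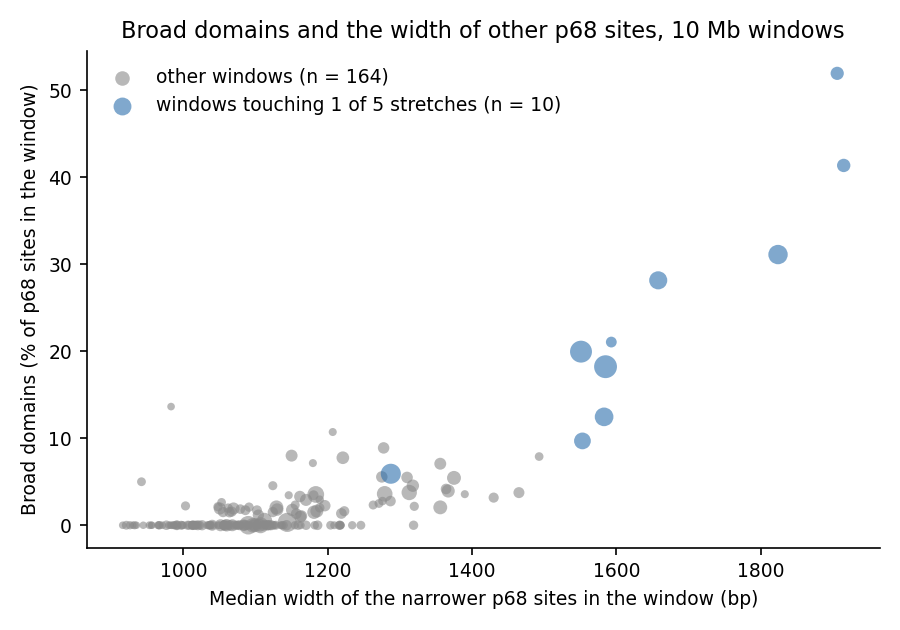
Percent of p68 sites that were broad against the median width in bp of the narrower p68 sites, for the 174 windows of 10 Mb with at least 20 p68 sites; the area of a point grows with the number of p68 sites. The 10 windows that touch 1 of the 5 stretches (blue) hold the 9 medians over 1500 bp, and the highest point is 30 to 40 Mb of chromosome 12 at 51.9%.

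The broad domains lay close to other p68 sites. The median distance to the nearest p68 site of any width was 3.21 kb for broad domains (quartiles 0.525 and 10.5 kb) and 19.9 kb for narrower sites (5.15 and 70.0 kb). Another p68 site lay within 10 kb of 538 broad domains (74.1%, 70.8 to 77.2) and of 4823 narrower sites (36.0%, 35.2 to 36.8), an odds ratio of 5.09 (95% interval 4.29 to 6.07, p = 9.05e-92, Fisher's exact test, two-sided). Comparing only sites of the same 10 Mb window lowered it to 2.00 (1.64 to 2.45, p = 1.37e-12, exact conditional test). Outside the 5 stretches, 87 of 174 broad domains and 29.8% of narrower sites had such a neighbour, an odds ratio of 2.36 (1.72 to 3.22).

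They also lay close to each other. Another broad domain was found within 100 kb of 565 members (77.8%, 74.7 to 80.7), and a broad domain within 100 kb of 2111 narrower sites (15.7%, 15.1 to 16.4), an odds ratio of 18.8 (15.6 to 22.6, p = 1.80e-278, Fisher's exact test, two-sided). With the chromosome as strata the ratio was 10.3 (8.38 to 12.6), and with 10 Mb windows as strata it was 3.37 (2.68 to 4.27, p = 4.18e-28, exact conditional test). Outside the stretches it was 9.41 (6.76 to 13.0), from 67 of 174 broad domains and 6.24% of narrower sites. The median distance to the nearest broad domain was 16.3 kb for members and 3322 kb for narrower sites. At least 1 of the adjoining p68 sites was broad for 364 members (50.1%, 46.5 to 53.8) and for 882 narrower sites (6.58%, 6.17 to 7.01).

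Joining domains at most 100 kb apart gave 255 groups. Of these, 161 held a single domain, 37 held at least 5 and together 423 domains, and 19 held at least 10 and together 308. The group with most members ran over chr12:32063783-32832292, where 39 broad domains and 18 narrower p68 sites stood in 768.5 kb. Its domains were 3159 to 12526 bp wide and covered 24.1% of the interval, which held no SRA site. At chr12:7805092-8290375, 31 domains with a median width of 5018 bp covered 37.0% of 485.3 kb, beside 18 narrower p68 sites and 2 SRA sites. The group at chr1:28600529-29259350 had another make-up, with 33 domains among 65 narrower p68 sites and 9 SRA sites in 658.8 kb. The next were chr12:2902413-3176260 (19 domains in 273.8 kb) and chr2:26063464-26547526 (18 domains in 484.1 kb), neither with an SRA site.

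Some neighbours were nearly touching. The smallest gap between p68 sites was 1 bp, and 230 broad domains (31.7%, 28.4 to 35.2) had another p68 site within 1 kb, against 1208 narrower sites (9.01%). Joining all p68 sites at most 1 kb apart left 13357 sites, of which 964 were broad. After joining, the odds ratio was 4.60 for another p68 site within 10 kb and 14.2 for a broad domain within 100 kb.

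A few domains stood alone. The most isolated was chr6:58773447-58780334, 6888 bp wide, with 1953 kb to the next p68 site. It was followed by chr4:68264067-68267098 (3032 bp), 624408 bp from another p68 site, and chr4:49653229-49656438 (3210 bp), 542191 bp from the next, which was itself broad. The sequence at these positions, including any repeats that affect read placement, was not analysed here, and its part was not tested.

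The broad domains were less often near SRA than the narrower sites were. An SRA site lay within 10 kb of the midpoint of 93 broad domains (12.8%, 10.6 to 15.4) and of 2518 narrower sites (18.8%, 18.1 to 19.5). The odds ratio was 0.635 (0.503 to 0.795, p = 2.91e-05, Fisher's exact test, two-sided). It was 0.453 with the chromosome as strata (0.355 to 0.572, p = 8.41e-13) and 0.445 with 10 Mb windows as strata (0.344 to 0.570, p = 1.18e-11, exact conditional tests). The midpoint was used because a wide site reaches more of the genome from its edges. Measured from the edges, where that reach favours broad domains, SRA lay within 500 bp of 23 broad domains (3.17%, 2.12 to 4.71) and of 903 narrower sites (6.74%, 6.32 to 7.17), an odds ratio of 0.453 (0.284 to 0.690, p = 5.54e-05, Fisher's exact test). Near the midpoint the wider half-width of a broad domain works the other way, since the first 1500 bp or more lie inside the domain.

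The size of the difference varied with the distance used and with the sites included. Within 2 kb of the midpoint, 16 broad domains (2.20%) and 1107 narrower sites (8.26%) had an SRA site, an odds ratio of 0.250. Most of that distance lies inside a broad domain, so this ratio depends in part on the width that chose the members. At 50 kb the shares were 43.7% and 41.4% (odds ratio 1.10, p = 0.231, Fisher's exact test), and at 100 kb broad domains had SRA more often, 59.0% against 52.9% (odds ratio 1.28, p = 0.00152, Fisher's exact test). Without chromosome 12 the ratio at 10 kb was 0.811 (p = 0.0985, Fisher's exact test), and without chromosome 1 it was 0.5001 (0.342 to 0.710, p = 3.14e-05, Fisher's exact test). Without the 5 stretches the shares were 16.1% (11.4 to 22.3) and 16.5% (15.8 to 17.2), a ratio of 0.970 (0.621 to 1.47) whose interval also holds 0.635, and with p68 sites joined within 1 kb it was 0.930 (p = 0.435, Fisher's exact test).

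The lower share at broad domains was clearest in the stretches of chromosome 1, where SRA sites were dense, and in the other stretches the intervals of both classes overlapped. In the first stretch of chromosome 1, with 21.3 SRA sites per Mb, 34 of 186 broad domains (18.3%, 13.4 to 24.5) and 39.9% of narrower sites (36.7 to 43.1) had SRA within 10 kb of the midpoint. In the second, 10 of 35 broad domains (28.6%, 16.3 to 45.1) and 54.9% of narrower sites (48.6 to 61.0) had it. On chromosome 7 it was found for 6 of 20 broad domains (14.5 to 51.9%) and 40.4% of narrower sites (34.6 to 46.5). On chromosome 12, with 1.77 SRA sites per Mb, they were 6.36% (3.89 to 10.2) and 8.94% (6.55 to 12.1). The stretch of chromosome 2 held 2 SRA sites in all, and none of its 75 broad domains had one within 10 kb, a count that allows up to 4%. The difference between stretches and the rest of the genome was not tested.

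SRA sites also covered a smaller share of the bases of broad domains than of narrower sites, except on chromosome 2, where both were at 0. SRA covered 6.95% of the first stretch of chromosome 1, but 5.10% of the bases in its narrower p68 sites and 0.345% of those in its broad domains. In the second stretch these values were 9.50%, 6.92% and 2.41%. On chromosome 12 they were 0.858%, 3.15% and 0.795%, so that there the narrower sites were richer in SRA than the stretch and the broad domains were not. On chromosome 7 they were 4.33%, 4.95% and 2.94%. Outside the stretches SRA covered 1.796% of narrower p68 sites and 0.544% of broad domains. The values of broad domains rest on few bases and on single domains, and no intervals were computed. On chromosome 12, 1 domain gave 3858 bp of the 8.85 kb shared with SRA. In the second stretch of chromosome 1 it was 2625 bp of 3.361 kb, and outside the stretches 2992 bp of 3.607 kb. The order of the stretches is therefore uncertain.

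Around the domains SRA sites thinned towards the inside, and narrower sites too held fewer inside than just outside. Only 3 SRA midpoints fell inside the 3.11 Mb of broad domains, 0.966 per Mb (95% exact interval 0.199 to 2.82), against 66 inside narrower sites, 3.79 per Mb (2.93 to 4.82). From 0.5 to 2 kb outside, the density was 8.76 per Mb for broad domains (5.10 to 14.02) and 17.4 for narrower sites (16.1 to 18.8). From 2 to 5 kb it was lower in both classes, 7.84 and 10.9 per Mb. Beyond 5 kb it rose with distance around broad domains and fell around narrower sites. At 50 to 100 kb the density was 14.9 per Mb for broad domains (13.4 to 16.6) and 3.20 for narrower sites (3.02 to 3.39). The share of bases covered by SRA fell in the same way towards broad domains, from 4.53% at 50 to 100 kb to 1.68% in the first 500 bp outside, 1.23% in the outer 500 bp of the domains and 0.418% more than 1000 bp inside. Around narrower sites it was highest, 4.003%, at 500 to 1000 bp outside, and 0.873% at 50 to 100 kb. In the first 500 bp outside narrower sites it was 3.58%, and inside them 2.30%. These bands pool all regions of the genome. SRA density ran from 0.333 sites per Mb in the stretch of chromosome 2 to 29.9 in the second stretch of chromosome 1. The mix of regions can thus differ between bands and between classes, and its part in these trends was not tested.

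**Figure D4:**
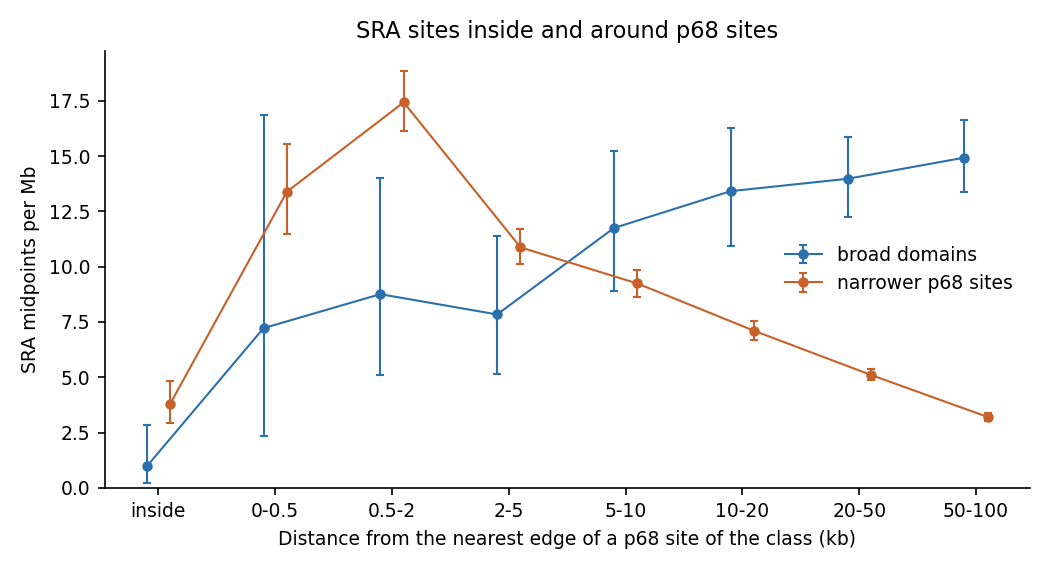
SRA midpoints per Mb inside p68 sites and in bands of distance (kb) from their nearest edge, for broad domains (blue) and narrower p68 sites (orange), with 95% exact Poisson intervals. The broad series is lowest inside the domains, at 0.966, and highest at 50 to 100 kb, at 14.9, and the narrower series peaks at 17.4 in the band from 0.5 to 2 kb and falls to 3.20.

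SRA overlapped 18 broad domains, in 20 pairs. In all 20 the sites overlapped in part, and neither enclosed the other. The median pair shared 716.5 bp, 17.04% of the p68 site and 25.2% of the SRA site. Narrower sites formed 753 such pairs from 701 sites, and 104 of these had the p68 site wholly inside the SRA site, which a width of 3000 bp makes harder to meet. Within 500 bp of a broad domain lay 25 SRA sites (0.316% of the SRA list), whose widths had a median of 3263 bp. Within 500 bp of a narrower site lay 903 SRA sites (11.4% of the list), with a median of 2549 bp. The median of the whole SRA list was 2227 bp. Broad domains were 5.14% of the p68 sites, so a smaller number of SRA sites near them follows in part from that.

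The 5 domains that shared most bases with SRA lay on chromosomes 12, 1 and 7. The domain chr12:31516764-31522332 shared 3858 of its 5569 bp (69.3%) with the SRA site chr12:31514483-31520621. It lay 1401 bp before chr12:31523734-31535269, the third widest of all, which had no SRA overlap. The highest fraction was that of chr1:155211615-155214655, with 2625 of 3041 bp (86.3%) in a pair of SRA sites that shared 578 and 2047 bp with it. Next came chr1:204476253-204479933, with 2992 of 3681 bp (81.3%). The last were chr7:2916674-2920284, with 1487 of 3611 bp (41.2%), and chr12:7891837-7896787, with 1486 of 4951 bp.

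Closeness to broad domains rose with width on both sides of 3000 bp, with the largest rise between neighbouring classes at that limit, where the classes also become wider. A broad neighbour within 100 kb was found for 5.66% of p68 sites under 1000 bp, 24.8% of those of 1500 to 2000 bp, 50.6% of those of 2500 to 3000 bp, 71.1% of those of 3000 to 4000 bp and 92.4% of those of at least 6000 bp. Another p68 site within 10 kb was found for 26.2% of the narrowest class, 61.7% of the sites of 2500 to 3000 bp, 71.6% of those of 3000 to 4000 bp and 83.3% of the widest class. SRA near the midpoint did not follow one direction. Its share was 16.1% under 1000 bp, 22.1% at 2000 to 2500 bp, 14.1% at 3000 to 4000 bp and 6.06% (4 of 66 sites, 2.38 to 14.6) at 6000 bp and over.

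**Figure D5:**
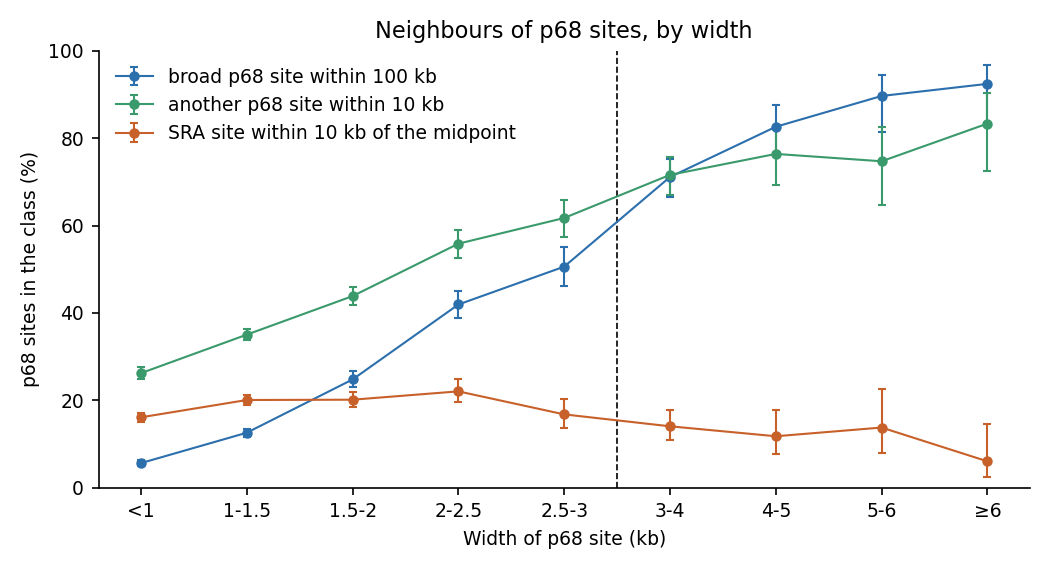
Percent of p68 sites in each class of width (kb) that had a broad site within 100 kb (blue), another p68 site within 10 kb (green) or an SRA site within 10 kb of the midpoint (orange), with 95% Wilson intervals; the dashed line marks 3000 bp. The blue series rises from 50.6% to 71.1% across that line and ends at 92.4%, the green one ends at 83.3%, and the SRA series ends at 6.06%.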

How the data were processed

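The authors sequenced p68 ChIP-seq and SRA ChIRP-seq libraries of NTERA2 cells with single-end reads of 50 bp. Per the labels and the study's methods, CASAVA 1.8.2, SAMtools (duplicates and reads of mapping quality under 20 removed) and MACS 1.4.2 were used, with peak p-values below 1e-05 for p68 and 1e-04 for SRA. Sites of 3 replicates were intersected with ChIPpeakAnno, and LacZ probe sites were subtracted from SRA. The aligner is not given in the sources used here, nor is how the intersection set the edges, on which every width depends. The deposited files hold positions in bp, start and end on hg19.

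Widths, gaps and overlaps were computed from these positions in Python 3.11.15 and tested in R 4.3.3 (Fisher's exact test, and exact conditional tests with strata). A simulation with planted SRA sites checked the scripts. Sites named singly are the 10 widest, those nearest the limit on either side, the 5 sharing most bases with SRA, the 3 most isolated and the 5 groups with most domains. Members and lists were chosen with earlier results of these data known. Genes and sequences were not analysed here, since the annotation at hand was of another build.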

Additional observations from a re-analysis of the deposited data

How the results depend on the processing

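The number of broad domains, 726, was 1220 with a limit of 2500 bp, 314 with 4000 bp and 153 with 5000 bp. The number of chromosomes whose share differed, 22, was 14 with a limit of 4000 bp, 9 with 5000 bp and 11 when sites of a class within 100 kb counted once. The odds ratio for SRA near the midpoint, 0.635, no longer passed the threshold with p68 sites joined within 1 kb (0.930), without chromosome 12 (0.811) or without the 5 stretches (0.970, chosen after seeing the data). It turned at 50 kb (1.10) and 100 kb (1.28). The cause was not tested. In its other 12 alternatives it stayed between 0.250, at 2 kb from the midpoint, and 0.749. For another p68 site nearby the ratio ran from 2.00 to 9.31 over 13 alternatives, which included gaps of 2, 5 and 50 kb. The 9.31 was that of 50 kb, and at 10 kb the ratio reached at most 6.06. For a broad domain nearby it ran from 3.37 to 29.7 over 13 alternatives, which included gaps of 10, 50 and 500 kb. All of these passed the threshold on the same side. Measuring SRA from the p68 edges was also added after seeing the data. No paired analysis was possible because each list was already combined over replicates, and for the same reason no replicate could be left out. With no read counts the depth behind a site is unknown, and its part in the widths was not tested.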

Other observations

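Of the 66 domains of at least 6000 bp, 5 lay outside the stretches described above, and they are listed here after their values were seen. They were chr5:1041510-1049012 (7503 bp), chr6:58773447-58780334 (6888 bp), chr4:49104336-49111037 (6702 bp), chr16:15053337-15060021 (6685 bp) and chr10:42661137-42667763 (6627 bp). Their distances to the next p68 site were 57.1, 1953, 352, 3.17 and 58.9 kb in that order. Repeats in the sequence at these 5 positions were not analysed here either. Only the domain on chromosome 16 had another p68 site within 10 kb. Over all 66 domains of this width, these 5 included, 55 did. The stretches were drawn where broad domains were dense, so fewer close neighbours outside them follow in part from that choice.

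The 174 broad domains outside the stretches were found on 19 chromosomes. Chromosome 1 held 56 of them, chromosome 7 held 30, chromosome 2 held 21, chromosome 11 held 13 and chromosome 21 held 10.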
